A study of Mus musculus with 16 samples.

Results

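The 32 genes described here are ones that macrophages of mouse adipose tissue express, and they were chosen by name from the 54532 genes of the deposited table; the choice used no threshold on their values but was made with earlier results of these data known. They comprise 7 identity and lineage genes, 3 lysosomal and oxidase genes, 5 Fc receptor and adaptor genes, 6 genes of resident macrophages, 4 scavenger and clearance genes, 2 genes of lipid-associated macrophages, 2 Ms4a genes and 3 genes of microbial sensing and costimulation. All 32 were in the table. RNA had been taken from whole iWAT, the inguinal white fat pad under the skin of the groin, of male mice, and 4 groups with 4 libraries each, 16 in all, were sequenced. Has2_TG were Apn-Has2 mice, which carry the transgenes Apn-rtTA and TRE-Has2, and Has2_WT were their littermates with Apn-rtTA. PH20_TG were Apn-PH20 mice with Apn-rtTA and TRE-PH20, and PH20_WT were the Apn-rtTA littermates of these. All groups, the controls included, entered the experiments at 8 to 10 weeks of age and ate chow with 200 mg/kg doxycycline for 5 days before the fat was taken. The adiponectin promoter drives rtTA, the factor that doxycycline activates, so adipocytes and not macrophages make the transgene product. Has2 is a synthase of hyaluronan, a large polysaccharide of the extracellular matrix, and PH20 (gene Spam1) is a hyaluronidase, so the comparisons ask how macrophage transcripts differ after adipocytes make or cut more hyaluronan. The labels do not say that each library is a separate mouse, and the p-values measure the spread between libraries.

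Macrophages are among the most abundant immune cells of lean fat. They depend on the receptor for colony-stimulating factor 1 (Csf1r) and on the transcription factor PU.1 (Spi1), and they clear dying adipocytes, lipid, iron and debris through scavenger and Fc receptors. Resident macrophages lie along vessels and between adipocytes and carry lectins and phosphatidylserine receptors such as Cd209 proteins and Timd4, whereas lipid-associated macrophages gather around dying adipocytes and carry Trem2 and Gpnmb.

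PU.1 binds a purine-rich core, and the letters GAGGAAG were searched for on either strand of the 300 bases around the start sites of the genes, 250 before and 50 after, in the RefSeq promoters of GRCm38.p6. The promoter table held windows of 25 of the 32 genes, and 6 of these genes (24%) and 7 of their 28 windows (25%) held the letters, beside 4477 of all 32851 windows (13.6%). They stood in every case as the reverse complement on the strand of the gene. The stretches are shown because they name the genes whose promoters carry this macrophage motif, with the motif in capitals and 10 bases on either side, 5′ to 3′ on the strand of the gene; a match of letters is a description and not a bound site.
Fcgr3, chr1:171059394-171059420, - strand: agtccatttcCTTCCTCtttttgtagt
Mrc1, chr2:14229236-14229262, + strand: cctctctcccCTTCCTCctgtgcctta
Mrc1, chr2:14229368-14229394, + strand: aaagggacagCTTCCTCtgtcctcctt
Ctss, chr3:95526775-95526801, + strand: tgaaagttcaCTTCCTCattgtggatg
Fcgr1, chr3:96294009-96294035, - strand: tggcaacttcCTTCCTCttttctaatc
Laptm5, chr4:130913267-130913293, + strand: cagcctgtggCTTCCTCttttttgttc
Trem2, chr17:48346350-48346376, + strand: gcctcctttcCTTCCTCcctccctcac
The motif began 7 bases before a start site of Fcgr3, 41 before that of Trem2, 39 before that of Laptm5 and 56 before that of Fcgr1, and it crossed the start site of Ctss. Mrc1 held it at both 168 and 36 bases before its start. The 6 genes belong to 5 of the groups of roles, and their levels are given with those groups.

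The libraries held 14421692 to 26751729 reads on genes (median 18452544.5). Levels are given as FPKM, fragments per length of gene and depth of library, which allows genes to be compared per length, and as log2 fold changes of FPKM + 0.1. Endogenous and transgenic Has2 together stood at 0.417 to 0.806 FPKM in Has2_WT and 1.86 to 3.24 in Has2_TG. Spam1 had no read in any library of Has2_WT, Has2_TG or PH20_WT and 6, 12 and 5 reads in PH20_TG2, PH20_TG3 and PH20_TG4. The library labelled PH20_TG1 had no Spam1 read, which allows up to 3 reads, and a Has2 level of 3.32 FPKM, above that of every Has2_TG library. PH20_TG4, which had Spam1 reads, had 3.26 FPKM of Has2, also above every Has2_TG library. PH20_TG2 and PH20_TG3 had 0.380 and 0.0990. The Has2 level of the PH20_WT controls is not given here, so these values stand without that reference. Adipocyte markers summed to 9968 to 28207 FPKM, so adipocyte RNA was abundant in each library. Markers of B cells summed to 408 and 328 FPKM in Has2_WT1 and Has2_WT2 and to 417 and 171 in PH20_WT1 and PH20_WT3, against 16.9 to 34.2 in the other 12 libraries, and markers of T cells and of lymph node stroma were high in the same 4 controls.

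Most macrophage genes stood higher in Has2_TG than in Has2_WT. All 32 had a mean of at least 50 reads and were tested, and 12 rose at an unadjusted p under 0.05, the threshold used by the study, beside 6.25% of all 12606 genes tested. The 12 were Adgre1, Csf1r, Fcgr3, Fcer1g, Cd209c, Cd209f, Mrc1, Cd163, Clec10a, Trem2, Gpnmb and Cd14. None was called lower, beside 3.75% of all genes, and 28 of 32 fold changes were above 0. The median log2 fold change of the 32 was 0.57, whereas that of all genes was -0.03. After Benjamini-Hochberg adjustment over all genes 0 of the 32 passed, beside 13 genes in all (0.103%), and the smallest adjusted p, that of Cd209c, was 0.123 by limma. For Fcgr3, Cd209c, Clec10a, Trem2 and Cd14, 5 of the 32, every Has2_TG library exceeded every Has2_WT library, and groups that did not overlap in either direction made up 6.19% of all genes. Of these, Cd209c and Trem2 met the minimum of reads only through the Has2_TG libraries. The control library Has2_WT3 was the lowest of the 8 for 18 of the 32 genes, a count not taken over all genes. Without Has2_WT2 or without Has2_WT3 the number that rose was 7, beside 661 of 12626 and 701 of 12674 genes in all. Without Has2_WT3 Timd4 fell, by a log2 fold change of -1.55, beside 572 of 12674 genes that fell. In a fit of all 16 libraries, which share one estimate of the spread, 4 of 31 rose, beside 802 of 12593 genes in all. They were Cd209c, Clec10a, Trem2 and Cd14. Without Has2_WT1 and Has2_WT2, the controls rich in B cell genes, 16 rose, beside 734 of 12323 genes in all. All 32 fold changes were then above 0. A different number of macrophages and a different amount of these RNAs per macrophage cannot be told apart in bulk tissue.

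In PH20_TG most of the genes stood lower than in PH20_WT, but their spread was wide. Of the 30 tested, with Vsig4 and Cd209c under the minimum of reads, 0 rose, beside 3.2% of all 12532 genes, and 1, Timd4, fell, beside 3.39%. Of the 30 fold changes all but 5 were below 0 and their median was -0.44, against 0.01 for all genes. After adjustment 0 passed, beside 0 (0%) of all genes, and in 0 of 30 did the groups fail to overlap, beside 4.54% of all genes. Without PH20_WT1 and PH20_WT3, the controls rich in B cell genes, the median was -0.12 and 10 of 30 fold changes were above 0. With the mean log2 level of B cell markers as a covariate the median was -0.11 and 12 of 30 were above 0. Of the 4 PH20_TG libraries, the library labelled PH20_TG1 was the highest of all 16 for 20 of the 32 genes and PH20_TG2 was the lowest of the 8 of its study for 27. PH20_TG4 lay within the range of PH20_WT for 24. These counts of libraries were taken for the 32 genes only and not over all genes.

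Without the library labelled PH20_TG1, 18 of the 30 genes fell, beside 4.88% of all 12510 genes then tested, 28 fold changes were below 0 and the median was -0.93. Mpeg1, Fcgr1, Timd4 and Ms4a7 then did not overlap between the groups, 4 of 30 beside 10.3% of all genes. None of the 30 passed adjustment, the smallest adjusted p being 0.516 by limma. The library left out was the highest of its study for 22 of the 32 genes. Leaving it out lowers the PH20_TG mean of these by construction. Values without it, here and below, therefore do not show a decrease with PH20 by themselves. PH20_TG2 and PH20_TG3 both lay below every PH20_WT library for 23 of the 32, whereas PH20_TG4 lay within the PH20_WT range for 24. These counts were not taken over all genes, so they are not a result about macrophage genes in particular. Without PH20_TG2 none of the 30 fell, beside 279 of 12552 genes in all, and 14 of 30 fold changes were above 0. The number that fell was also 0 without PH20_TG3, PH20_WT1 or PH20_WT3, beside 301 of 12578, 325 of 12309 and 286 of 12484 genes.

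The changes in the Has2 and PH20 mice were compared in a fit of all 16 libraries. Of 31 genes tested, 7 had a higher change with Has2 than with PH20, beside 4.03% of all 12593 genes, and 0 had a lower one, beside 3.68%. They were Fcgr2b, Cd209f, Cd209g, Mrc1, Cd163, Clec10a and Cd14. The difference was above 0 for 30 of 31, with a median of 0.94 on the log2 scale against -0.02 for all genes, and none passed adjustment, beside 0% of all genes. Without the library labelled PH20_TG1 the number was 19, beside 6.04%. It was 3 without PH20_TG2, PH20_TG3 or Has2_TG2, beside 322 of 12592, 323 of 12615 and 510 of 12606 genes. It was 4 without Has2_TG3, PH20_WT1 or PH20_WT4, beside 436 of 12601, 404 of 12508 and 405 of 12614 genes. The mean of 29 of the 32 genes was lower in Has2_WT than in PH20_WT, and the Has2_TG mean lay within the range of the PH20_WT libraries for 24. These levels come from different litters and were not tested, and such counts were not taken over all genes.

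**Figure D1:**
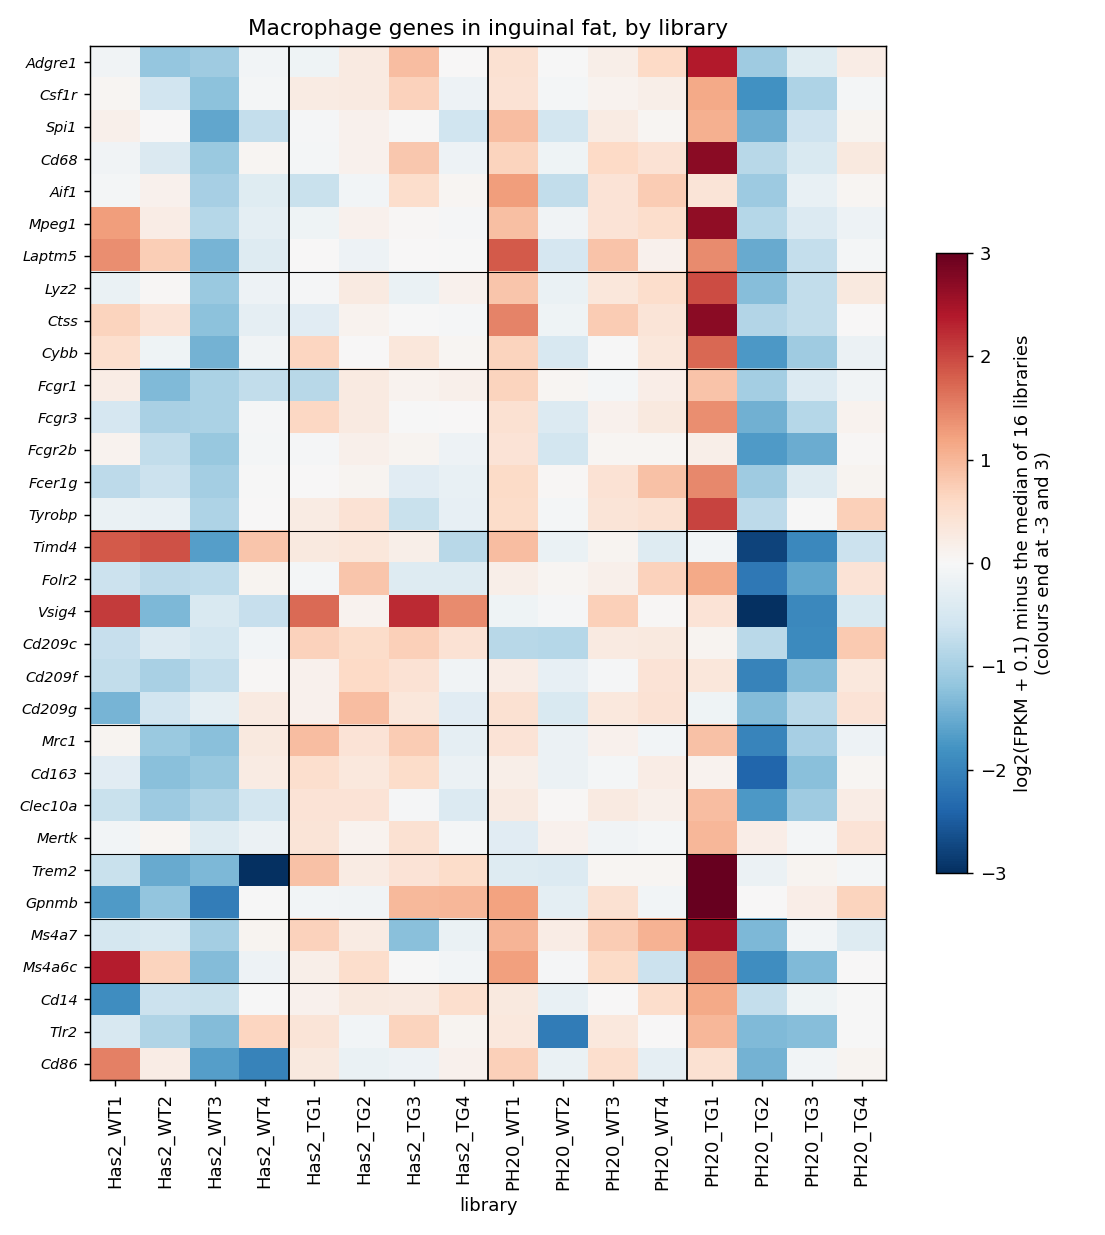
The heat map shows log2(FPKM + 0.1) of the 32 genes (rows, in groups of roles from identity and lineage at the top to microbial sensing and costimulation) in each of the 16 libraries (columns), minus the median of the 16. The column of the library labelled PH20_TG1 is the highest for 20 genes and that of PH20_TG2 the lowest for 18. Such counts were not taken over all genes.

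**Figure D2:**
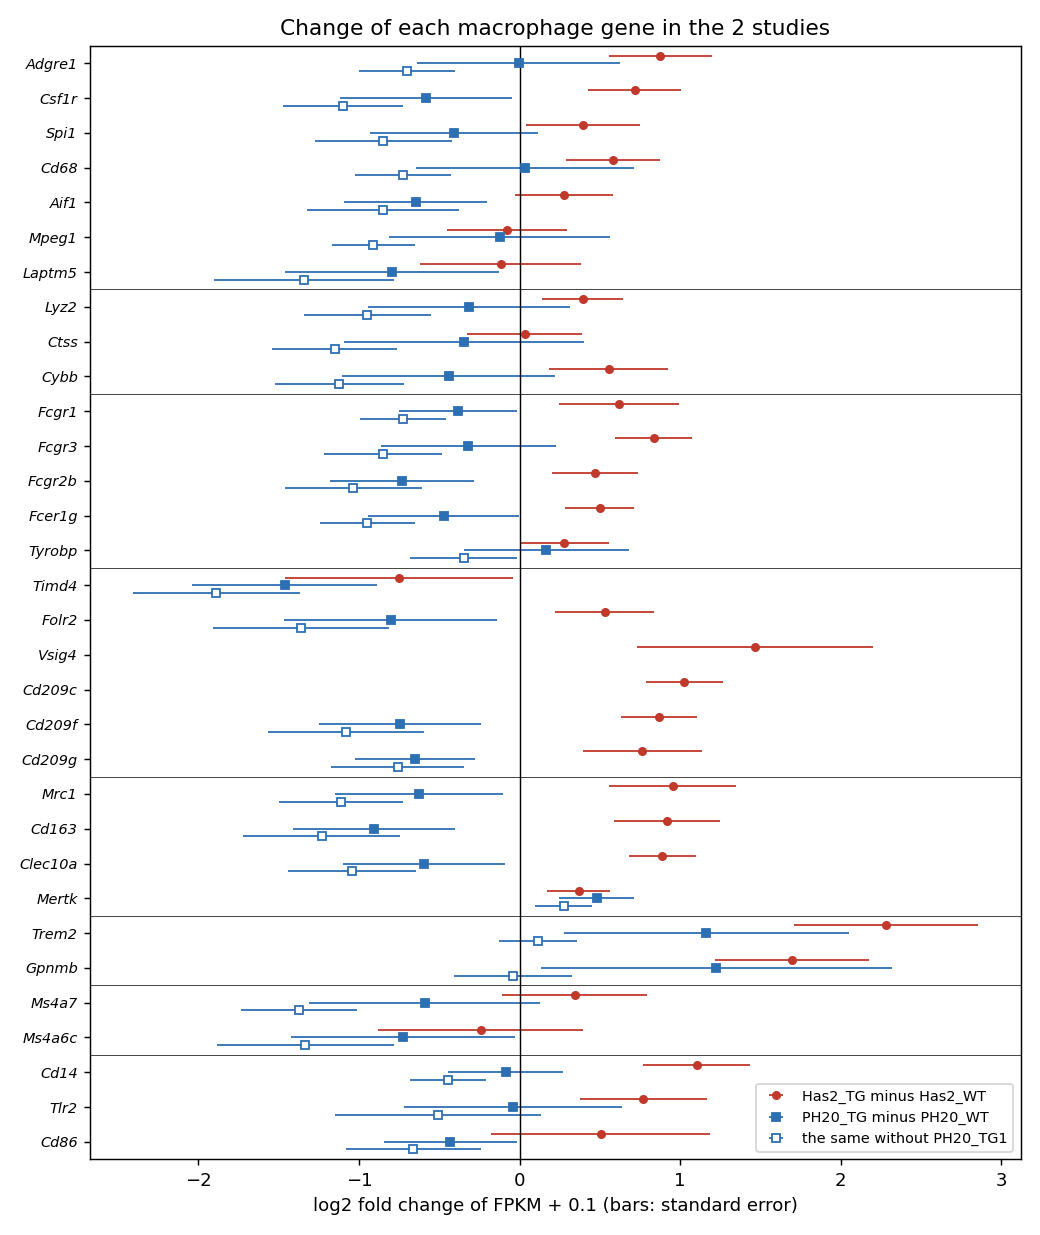
Points are log2 fold changes of FPKM + 0.1 and bars are standard errors, for Has2_TG against Has2_WT (red), PH20_TG against PH20_WT (blue squares) and the latter without the library labelled PH20_TG1 (open squares). Of the red points 28 of 32 lie above 0, and of the open squares 28 of 30 lie below 0; Vsig4 and Cd209c were tested in the Has2 study only.

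The identity and lineage genes showed 2 increases among 7 in Has2_TG and no decrease, and their median log2 fold change was 0.40. Adgre1 encodes F4/80, an adhesion receptor on the surface of most mouse tissue macrophages. Adgre1 stood at 8.12, 3.90, 4.15 and 8.33 FPKM in Has2_WT1 to Has2_WT4 and at 8.09, 10.7, 16.8 and 8.89 in Has2_TG1 to Has2_TG4. The lowest Has2_TG library lay under 2 of the 4 controls, and the log2 fold change was 0.88 (standard error 0.32, adjusted p = 0.390), called under 13 of 20 alternatives. Its levels were 12.1, 8.68, 10.0 and 13.3 in PH20_WT and 46.1, 4.16, 6.83 and 10.3 in PH20_TG, here and hereafter in the order of library number. The first PH20_TG value exceeded all others and the second lay below all controls, and the log2 fold change was -0.01 (standard error 0.63). It was -0.70 (standard error 0.30, adjusted p = 0.533) when the library labelled PH20_TG1 was left out.

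Csf1r encodes the receptor for CSF1 and IL-34, on which the survival of macrophages depends. It measured 28.7, 18.6, 11.8 and 26.7 FPKM in Has2_WT and 33.2, 33.3, 44.8 and 25.0 in Has2_TG, with 1 Has2_TG library inside the control range, and rose by a log2 fold change of 0.72 (standard error 0.29, adjusted p = 0.443). The call of Csf1r was kept under 12 of 20 alternatives, the lowest log2 fold change being 0.46. In PH20_WT it measured 37.7, 26.5, 29.8 and 31.5 and in PH20_TG 61.3, 7.76, 14.6 and 26.8. The 4 PH20_TG libraries spanned both sides of the tight controls, and the log2 fold change of -0.58 (standard error 0.54) became -1.10 (standard error 0.37, adjusted p = 0.516) without the library labelled PH20_TG1. In the annotation 873 exon bases of Csf1r overlap Hmgxb3 on the opposite strand, and reads of the pair cannot be told apart because the strand setting of the counting is not given in the sources used here.

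Cd68, a lysosomal glycoprotein of phagocytes, did not pass the threshold in either study. Its level was 19.8, 15.7, 9.75 and 22.2 FPKM in Has2_WT and 20.4, 23.2, 37.4 and 19.1 in Has2_TG, a log2 fold change of 0.58 (standard error 0.29, adjusted p = 0.565). In the PH20 mice Cd68 stood at 33.8, 19.4, 32.4 and 28.7 in PH20_WT and 139, 11.9, 15.4 and 26.2 in PH20_TG, so that the library labelled PH20_TG1 had 3.71 times the next highest of all libraries. The remaining identity genes were Spi1, the gene of PU.1 itself (3.28 to 20.7 FPKM over the 16 libraries), Aif1, an actin-bundling protein also called Iba1 (3.48 to 18.1), Mpeg1, a pore-forming protein against microbes (6.61 to 77.2), and Laptm5, a lysosomal membrane protein of blood cells (10.8 to 110.2). Their log2 fold changes in Has2_TG were 0.40, 0.28, -0.08 and -0.12 in that order, and none passed the threshold. Laptm5 and Mpeg1 were highest among the Has2 libraries in Has2_WT1, which also held the most B cell RNA of that study; lymphocytes express Laptm5 too, and the part of these cells in its level was not tested.

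Among the 3 lysosomal and oxidase genes none was called in either study. Without the library labelled PH20_TG1 all 3 fell, beside 4.88% of all genes, but that library held the highest level of each. Lyz2, the lysozyme of phagocytes, had the highest level per length of the 32 genes. It stood at 274, 323, 146 and 285 FPKM in Has2_WT and 307, 377, 276 and 342 in Has2_TG, with overlapping groups and a log2 fold change of 0.39 (standard error 0.25). Its levels were 559.6, 274, 398 and 451 in PH20_WT and 1219.7, 130.4, 188 and 385 in PH20_TG. Reads that match its paralog Lyz1 as well may be shared with it or left uncounted, which was not tested. Ctss, a cysteine protease that trims the invariant chain of MHC class II, ranged from 20.4 to 313 FPKM and Cybb, the catalytic subunit of the phagocyte NADPH oxidase, from 1.50 to 17.5. The log2 fold changes were 0.03 (standard error 0.36) and 0.55 (standard error 0.37) in Has2_TG, and -0.34 (standard error 0.75) and -0.44 (standard error 0.66) in PH20_TG. With the library labelled PH20_TG1 left out the latter were -1.15 (standard error 0.39, adjusted p = 0.516) for Ctss and -1.12 (standard error 0.40, adjusted p = 0.516) for Cybb.

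Of the 5 Fc receptor and adaptor genes, Fcgr3 and Fcer1g rose in Has2_TG. Fcgr3 encodes a low-affinity activating receptor for IgG, and Fcer1g the signalling chain that it and Fcgr1 need at the surface. Fcgr3 stood at 13.6, 9.75, 9.94 and 18.6 FPKM in Has2_WT and 29.6, 23.0, 19.2 and 19.3 in Has2_TG. Every Has2_TG library was above every control, by a log2 fold change of 0.83 (standard error 0.24, adjusted p = 0.219). Fcer1g measured 24.3, 27.2, 20.8 and 41.6 in Has2_WT and 42.8, 44.5, 33.2 and 36.2 in Has2_TG. Of the controls, Has2_WT4 lay among the Has2_TG libraries, and the log2 fold change was 0.50 (standard error 0.22, adjusted p = 0.480), without Has2_WT4 0.70. The increase of Fcer1g kept p under 0.05 under 9 of 20 alternatives and that of Fcgr3 under 19 of 20.

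In the PH20 mice neither of these genes was called. Fcgr3 was 26.6, 14.4, 21.2 and 23.6 FPKM in PH20_WT and 50.7, 7.01, 10.6 and 20.7 in PH20_TG. Fcer1g was 62.7, 43.6, 57.3 and 77.8 in PH20_WT and 115, 20.0, 32.1 and 44.5 in PH20_TG. The log2 fold changes were -0.32 (standard error 0.54) and -0.47 (standard error 0.47). Fcgr2b, the inhibitory IgG receptor, had no call in either study, at 9.64, 5.40, 4.08 and 8.68 FPKM in Has2_WT and 8.78, 10.1, 9.62 and 8.09 in Has2_TG. In the PH20 study it stood at 12.0, 6.13, 9.32 and 9.38 in PH20_WT and 10.1, 2.73, 3.16 and 9.26 in PH20_TG. Its changes of 0.47 and -0.73 differed by 1.20 (standard error 0.55, adjusted p = 0.641) between the studies, and PH20_TG2 and PH20_TG3 were the libraries below all others. B cells express Fcgr2b as well, and 155 of its exon bases overlap Gm38204 on the opposite strand.

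Tyrobp encodes DAP12, the adaptor through which Trem2 signals, and it was called in neither study. It stood at 29.4, 28.6, 17.5 and 33.5 FPKM in Has2_WT and 39.8, 45.1, 21.1 and 28.3 in Has2_TG, with overlapping groups and a log2 fold change of 0.28 (standard error 0.28). In PH20_WT it was 49.0, 31.9, 43.7 and 46.1 and in PH20_TG 138, 19.5, 33.5 and 55.2, a log2 fold change of 0.17 (standard error 0.51). Fcgr1, the high-affinity IgG receptor, ranged from 1.26 to 6.02 FPKM, with log2 fold changes of 0.62 in Has2_TG and -0.39 in PH20_TG. Once the library labelled PH20_TG1 was left out it was lower in all PH20_TG libraries than in any PH20_WT library, by -0.73 (standard error 0.27, adjusted p = 0.523). Fcgr2b at chr1:170958617-170976547, Fcgr3 at chr1:171051174-171064935 and Fcer1g at chr1:171229572-171234365 neighbour each other (GRCm38). As Fcgr2b and Fcgr3 are similar in sequence, reads that match both may be shared between them or left uncounted.

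The 6 resident genes split in Has2_TG. Cd209c and Cd209f rose, Folr2, Vsig4 and Cd209g had fold changes above 0 that did not pass the threshold, and Timd4 had one below 0. The Cd209 genes encode C-type lectins related to human DC-SIGN and lie together at chr8:3940222-3954746, chr8:4102787-4105835 and chr8:4134098-4137707. As they form a family of close copies, reads that match more than 1 of them may be shared or left uncounted. Cd209c stood at 0.827, 1.03, 0.914 and 1.31 FPKM in Has2_WT and 2.30, 2.08, 2.35 and 1.92 in Has2_TG. The groups did not overlap and the log2 fold change of 1.03 (standard error 0.24, adjusted p = 0.123) kept p under 0.05 under all 20 alternatives. Cd209c had 31 to 50 reads in Has2_WT and 69 to 116 in Has2_TG. It met the minimum mean of 50 reads only through the Has2_TG libraries. Cd209f, the most abundant of the 6 per length, measured 17.9, 15.2, 18.2 and 30.5 in Has2_WT and 32.9, 45.3, 40.5 and 28.1 in Has2_TG. Only the control Has2_WT4 lay within the Has2_TG range, and the gene rose by 0.87 (standard error 0.24, adjusted p = 0.195). Without Has2_WT4, the control with the highest Cd209f, the increase of Cd209f was 1.08 with an adjusted p of 0.0433 by limma. It was the sole adjusted p of a macrophage gene under 0.05 among the alternatives. In that setting 141 of all 12653 genes passed adjustment, against 13 of 12606 with all libraries. Cd209g was 2.17, 3.91, 4.75 and 7.08 in Has2_WT and 6.45, 11.2, 7.41 and 4.64 in Has2_TG, a log2 fold change of 0.76 (standard error 0.37, adjusted p = 0.551).

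In the PH20 mice Cd209f and Cd209g were lowest in the same 2 transgenic libraries. Cd209f stood at 34.9, 25.3, 29.5 and 39.7 FPKM in PH20_WT and 38.2, 7.46, 12.2 and 37.2 in PH20_TG. Cd209g stood at 8.14, 4.26, 7.28 and 7.95 in PH20_WT and 5.32, 2.31, 3.30 and 7.82 in PH20_TG. PH20_TG2 and PH20_TG3 held the lowest Cd209f of all libraries, whereas the other 2 PH20_TG libraries lay within the range of the controls. The change with Has2 exceeded that with PH20 by 1.61 (standard error 0.60, adjusted p = 0.606) for Cd209f and 1.41 (standard error 0.56, adjusted p = 0.613) for Cd209g. Cd209c, with too few reads to be tested in this study, was listed at 0.744, 0.732, 1.70 and 1.75 in PH20_WT and 1.49, 0.755, 0.300 and 2.50 in PH20_TG.

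Timd4 encodes a phosphatidylserine receptor that binds dying cells and marks long-lived resident macrophages. It was the only one of the genes that fell in PH20_TG, and it was the gene with the lowest fold change in both studies. Its level was 7.22, 3.28, 3.99 and 2.86 FPKM in PH20_WT and 3.57, 0.463, 0.910 and 2.39 in PH20_TG. The groups overlapped in the library labelled PH20_TG1, and the log2 fold change of -1.46 (standard error 0.58, adjusted p = 0.703) became -1.89 (standard error 0.52, adjusted p = 0.516) without it. The call was lost without PH20_WT1, PH20_WT3, PH20_TG2 or PH20_TG3, with log2 fold changes of -1.19, -1.47, -0.99 and -1.27. In Has2_WT the levels were 13.9, 14.6, 1.14 and 6.84 and in Has2_TG 4.64, 4.82, 4.25 and 2.07. Has2_WT1, Has2_WT2 and PH20_WT1 held the highest Timd4, and these were also the libraries with the highest B cell sums, 408, 328 and 417 FPKM. When the fit held the level of B cell markers as a covariate, the log2 fold change of Timd4 was 0.36 in Has2_TG, where it had been -0.75 (standard error 0.71), and -0.94 in PH20_TG; the part of lymph node tissue in the change was not tested.

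Folr2, a folate receptor of perivascular resident macrophages, measured 4.89, 4.41, 4.46 and 8.13 FPKM in Has2_WT and 7.39, 13.7, 5.87 and 5.85 in Has2_TG. Has2_WT4 lay above 3 of the 4 Has2_TG libraries, and the log2 fold change was 0.53 (standard error 0.31, adjusted p = 0.635). It was 8.62, 7.93, 8.49 and 12.3 in PH20_WT and 16.9, 1.66, 2.52 and 10.2 in PH20_TG, a log2 fold change of -0.80 (standard error 0.66). In the annotation 975 exon bases of Folr2 overlap Gm10602 on the other strand. Vsig4, a complement receptor of the immunoglobulin family, was close to its limit of detection in several libraries. Vsig4 stood at 3.56, 0.232, 0.516 and 0.423 in Has2_WT and 2.67, 0.812, 3.89 and 2.16 in Has2_TG, with Has2_WT1 inside the transgenic range, and the log2 fold change was 1.47 (standard error 0.73, adjusted p = 0.565). In PH20_WT it was listed at 0.677, 0.728, 1.30 and 0.771 and in PH20_TG at 1.02, 0, 0.121 and 0.520, where the 0 reads of PH20_TG2 allow up to 0.102 FPKM.

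**Figure D3:**
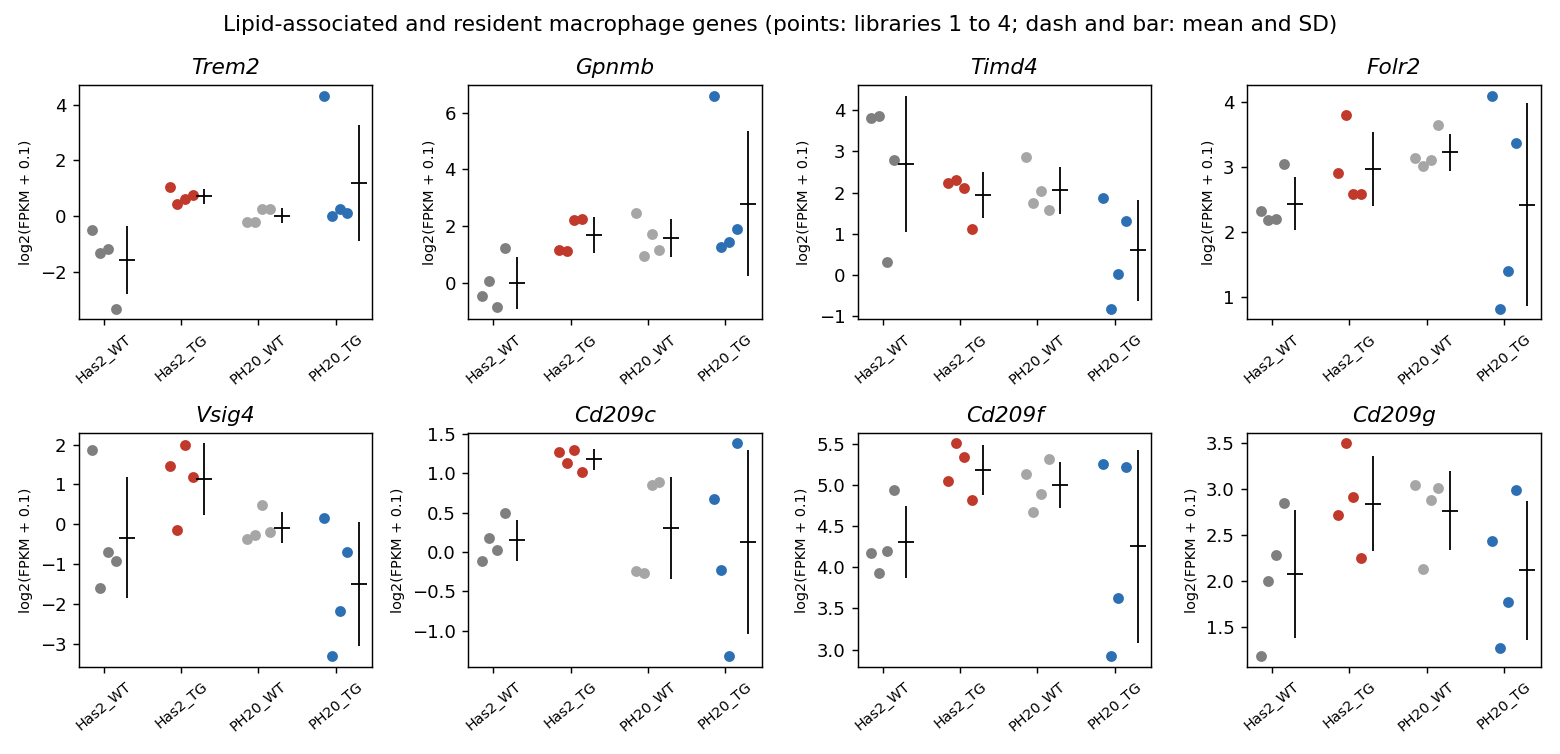
Each panel gives log2(FPKM + 0.1) of a lipid-associated (Trem2, Gpnmb) or resident gene in the 4 groups; points are libraries, and the dash and bar beside them are the mean and SD of 4. The highest Trem2 and Gpnmb points belong to the library labelled PH20_TG1, at 20.0 and 96.7 FPKM, while its Timd4 point, 3.57 FPKM, lies inside the PH20_WT range.

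Of the 4 scavenger and clearance genes, Mrc1, Cd163 and Clec10a rose in Has2_TG and Mertk did not pass the threshold. Mrc1 encodes the mannose receptor CD206, which takes up glycoproteins and collagen fragments. It stood at 19.6, 8.49, 7.67 and 22.9 FPKM in Has2_WT and 35.0, 24.8, 31.5 and 15.3 in Has2_TG. The groups overlapped through Has2_WT1, Has2_WT4 and Has2_TG4, and the log2 fold change was 0.95 (standard error 0.40, adjusted p = 0.457), with p under 0.05 under 10 of 20 alternatives. Cd163, the receptor for haemoglobin bound to haptoglobin, measured 11.5, 5.99, 6.51 and 17.3 in Has2_WT and 20.5, 18.2, 21.1 and 12.8 in Has2_TG, and rose by 0.92 (standard error 0.33, adjusted p = 0.377), with p under 0.05 under 13 of 20 alternatives. Clec10a, a lectin for galactose and N-acetylgalactosamine, did not overlap between the groups. It was 24.4, 18.1, 20.6 and 26.3 in Has2_WT and 51.0, 51.1, 37.6 and 29.1 in Has2_TG, a log2 fold change of 0.89 (standard error 0.21, adjusted p = 0.126), with p under 0.05 under all 20 alternatives.

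All 3 genes stood lowest of all libraries in PH20_TG2. Mrc1 was 24.6, 16.3, 20.2 and 17.4 FPKM in PH20_WT and 34.3, 4.63, 9.20 and 16.6 in PH20_TG. Cd163 was 16.4, 12.8, 14.0 and 17.1 in PH20_WT and 15.7, 2.72, 6.0 and 15.1 in PH20_TG. Clec10a was 46.5, 39.7, 46.9 and 43.2 in PH20_WT and 74.1, 11.6, 18.5 and 44.7 in PH20_TG. PH20_TG3 was low as well, and the log2 fold changes of -0.63, -0.91 and -0.60 did not pass the threshold. They were -1.11, -1.23 and -1.04 without the library labelled PH20_TG1, all at an unadjusted p under 0.05 and an adjusted p of 0.516 to 0.527 by limma. Of all genes 4.88% fell in that setting. The change with Has2 exceeded that with PH20 by 1.58 (standard error 0.71, adjusted p = 0.622) for Mrc1, 1.82 (standard error 0.65, adjusted p = 0.598) for Cd163, the widest difference among the genes, and 1.49 (standard error 0.58, adjusted p = 0.611) for Clec10a. Mertk, a receptor kinase for apoptotic cells, ranged from 2.91 to 7.82 FPKM, and its log2 fold changes of 0.37 (standard error 0.20) with Has2 and 0.48 (standard error 0.23) with PH20 were both above 0.

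Both lipid-associated genes were among those that rose in Has2_TG, from low levels, and had the largest log2 fold changes of the 32 with the pseudocount of 0.1. With a pseudocount of 1 Trem2, at 0.97, came after Gpnmb at 1.09 and Cd14 at 1.00. Trem2 encodes a lipid-sensing receptor, and Gpnmb a glycoprotein of lysosome-rich macrophages. Trem2 stood at 0.616, 0.301, 0.345 and 0 FPKM in Has2_WT and 1.99, 1.25, 1.41 and 1.58 in Has2_TG. Every Has2_TG library was above every control, with 0 reads in Has2_WT4, which allow up to 0.0318 FPKM. Its reads were 0 to 83 in Has2_WT and 103 to 248 in Has2_TG, so Trem2 met the minimum of reads only through the Has2_TG libraries. The log2 fold change of Trem2 was 2.28 (standard error 0.57, adjusted p = 0.147) with the pseudocount of 0.1, 3.37 with voom weights and 1.70 without Has2_WT4, and it passed the threshold under all 19 alternatives that kept the gene. Gpnmb measured 0.625, 0.942, 0.461 and 2.26 in Has2_WT and 2.15, 2.10, 4.58 and 4.66 in Has2_TG. Has2_WT4 alone reached the transgenic range, and the log2 fold change was 1.70 (standard error 0.48, adjusted p = 0.214).

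In the PH20 study a single library set the mean of both genes. Trem2 was 0.768, 0.758, 1.10 and 1.09 FPKM in PH20_WT and 20.0, 0.915, 1.10 and 0.993 in PH20_TG. Gpnmb was 5.38, 1.84, 3.17 and 2.14 in PH20_WT and 96.7, 2.28, 2.60 and 3.64 in PH20_TG. The library labelled PH20_TG1 held 20.1 times the median of the other 15 libraries for Trem2 and 42.8 times for Gpnmb. The log2 fold changes of 1.16 (standard error 0.89) and 1.23 (standard error 1.09) were 0.12 and -0.04 without it. With that library left out, PH20_TG2 and PH20_TG3 lay at 0.915 and 1.10 FPKM for Trem2, inside or at the edge of the PH20_WT range.

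The 2 Ms4a genes, which encode membrane proteins of the CD20 family, were called in neither study. Ms4a7 ranged from 0.406 to 7.34 FPKM, with log2 fold changes of 0.34 (standard error 0.45) in Has2_TG and -0.59 (standard error 0.72) in PH20_TG. Ms4a6c ranged from 0.638 to 13.6 FPKM and was highest in Has2_WT1, with log2 fold changes of -0.24 (standard error 0.64) and -0.72 (standard error 0.70). Without the library labelled PH20_TG1 the log2 fold change was -1.37 (standard error 0.36, adjusted p = 0.516) for Ms4a7 and -1.33 (standard error 0.55, adjusted p = 0.533) for Ms4a6c. They lie on the same chromosome at chr19:11321039-11336146 and chr19:11469366-11482192, and 1088 exon bases of Ms4a6c overlap BE692007 on the opposite strand.

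Cd14, the co-receptor that hands lipopolysaccharide to Toll-like receptors, was the one gene of microbial sensing that rose in Has2_TG. Its level was 3.55, 8.43, 8.24 and 13.1 FPKM in Has2_WT and 14.6, 16.3, 15.9 and 18.8 in Has2_TG, without overlap, and the log2 fold change was 1.10 (standard error 0.33, adjusted p = 0.262). Cd14 stood at 16.1, 11.4, 13.4 and 19.2 in PH20_WT and 29.3, 8.00, 12.0 and 13.1 in PH20_TG, where the library labelled PH20_TG1 was again the highest. The log2 fold change with PH20 was -0.09 (standard error 0.36), and the change with Has2 exceeded it by 1.19 (standard error 0.53, adjusted p = 0.619). Tlr2, the receptor for bacterial lipoproteins and one to which hyaluronan fragments have been reported to signal, ranged from 0.506 to 5.05 FPKM, with log2 fold changes of 0.77 (standard error 0.40) and -0.04 (standard error 0.68). Cd86, a costimulatory ligand for T cells, ranged from 0.529 to 7.14, with 0.51 (standard error 0.68) and -0.43 (standard error 0.42). Has2_WT1, rich in B cell RNA, had the highest Cd86 level, and B cells express it too.

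The library labelled PH20_TG1 exceeded the median of the other 15 libraries by unequal factors over the genes. Beside Trem2 and Gpnmb the factor was 6.79 for Cd68, 6.64 for Ctss, 6.57 for both Ms4a7 and Mpeg1, 5.32 for Adgre1, 4.11 for Tyrobp, 3.97 for Lyz2 and 2.28 for Csf1r. Scavenger and clearance genes other than Cd163 had factors near that of Csf1r, with 2.13 for Mertk and 1.97 for both Clec10a and Mrc1. Factors were lower for most resident genes and Cd163, with 0.824 for Cd209g, 0.895 for Timd4, 1.13 for Cd163 and 1.14 for Cd209c. Cd209f had 1.29 and Vsig4 1.40, while Folr2 had 2.29. Low factors were not confined to these genes, with 1.16 for Fcgr2b, 1.37 for Aif1, 1.47 for Cd86 and 1.90 for Fcgr1. The library also held the lowest sum of skeletal muscle markers in its study, 10.0 FPKM against 252 to 1034.5 in PH20_WT.

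The level of the resident and lipid-associated genes was also taken relative to Csf1r in the same library, a measure chosen after the values had been seen. In PH20_TG the log2 ratio of Trem2 to Csf1r was higher than in PH20_WT by 1.75. That of Timd4 was lower, by a difference of -0.88. Neither overlapped between the 4 and 4 libraries, and each had an exact two-sided permutation p of 0.0286, the smallest the design allows. The nearest libraries were close, with Trem2 at -4.62 in PH20_TG4 and -4.65 in PH20_WT3. For Timd4 they stood at -3.43 in PH20_TG4 and -3.41 in PH20_WT4. Ratios without overlap were not counted over all genes. The difference was 1.81 for Gpnmb and -0.84 for Vsig4 in PH20_TG, with an exact permutation p of 0.0571 for each. In Has2_TG it was 1.57 for Trem2 (exact permutation p = 0.0571), 0.98 for Gpnmb (0.114) and -1.47 for Timd4 (0.0857). Without the library labelled PH20_TG1 the PH20 difference was 1.22 for Trem2 (exact permutation p = 0.0286, again the smallest that 3 against 4 libraries allow), -0.79 for Timd4 (exact permutation p = 0.0571), 1.06 for Gpnmb and -0.87 for Vsig4 (exact permutation p = 0.0857 for both), and 0.74 for Cd209c. In that setting the log2 fold change was 0.12 for Trem2, -0.04 for Gpnmb and -1.10 for Csf1r. The ratios of Trem2 and Gpnmb then differed mainly through the lower Csf1r. With all libraries the Cd209 genes and Folr2 had ratios to Csf1r that differed from the controls by at most 0.40 in either direction in both studies. Over the 16 tests none passed Benjamini-Hochberg adjustment, the lowest adjusted exact permutation p being 0.183. As the exact permutation p cannot go below 0.0286, a single gene could not have passed by itself, and the adjustment decides little here.

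**Figure D4:**
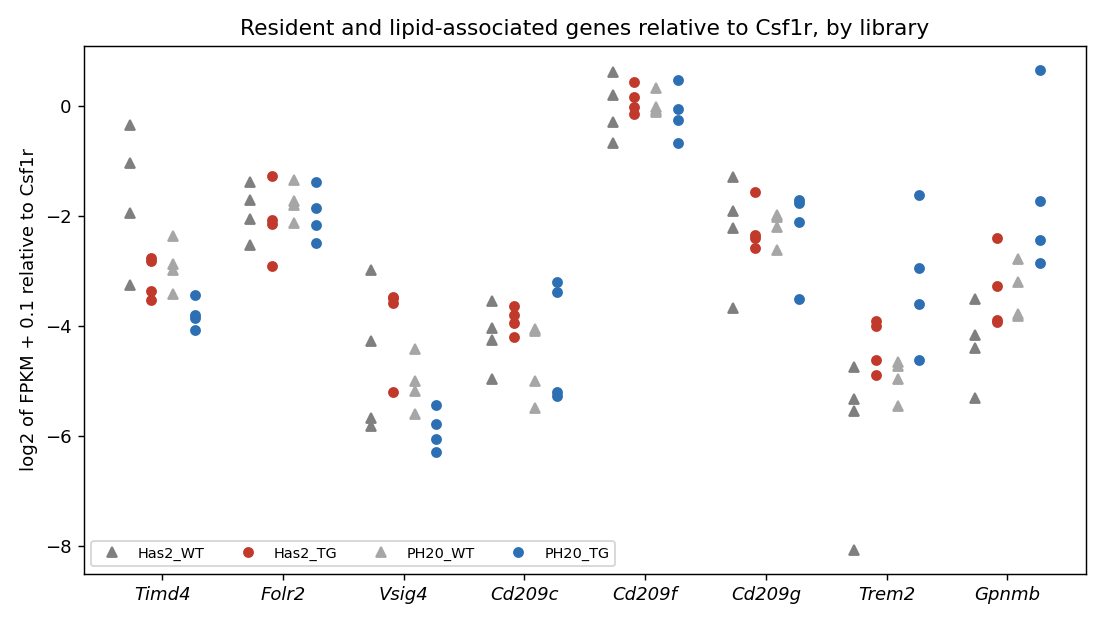
Points are the log2 ratio of FPKM + 0.1 of each gene to that of Csf1r in each library, triangles for controls and circles for transgenic mice. In the PH20 study the 4 blue Trem2 points lie above and the 4 blue Timd4 points below the grey PH20_WT triangles beside them, by 1.75 and -0.88 in the mean. The nearest blue and grey points lie close, at -4.62 and -4.65 for Trem2 and at -3.43 and -3.41 for Timd4.

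Macrophage genes outside the 32 were read from lists that had been written for this work with earlier results of these data known. The cells that made these RNAs in whole fat were not identified, so the lists do not measure macrophages alone. The counts stand beside 6.25% of all genes called higher and 3.75% called lower. Of 20 further general macrophage genes, 7 rose and none fell in Has2_TG (median log2 fold change 0.32), among them the complement gene C1qb by 1.00 (standard error 0.20, adjusted p = 0.0841) and the lectin Clec4a1 by 1.26 (standard error 0.31, adjusted p = 0.135). Of 17 further resident genes tested, 11 rose and none fell (median 0.69), led by the carbonyl reductase Cbr2 at 1.19 (standard error 0.23, adjusted p = 0.0776), the ligand of Mertk Gas6 at 0.87 (standard error 0.23, adjusted p = 0.186) and the chemokine Ccl8 at 1.07 (standard error 0.29, adjusted p = 0.197). Of 13 further lipid-associated genes tested none was called (median 0.03). Of 7 tested partners of Csf1r and of the adaptor DAP12, the ligand Csf1 rose by 0.96 (standard error 0.20, adjusted p = 0.0841), while Hcst, an adaptor also used by lymphocytes, fell by a log2 fold change of -1.32 (standard error 0.57, adjusted p = 0.482). Among alternative activation genes 2 of 6 rose, Retnla by 1.11 (standard error 0.31, adjusted p = 0.213) and Ccl24 by 1.20 (standard error 0.40, adjusted p = 0.318), and of 3 proinflammatory genes tested none was called.

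In PH20_TG none of the 20 further general and 18 resident genes was called, with medians of -0.46 and -0.48. Without the library labelled PH20_TG1 7 of 20 and 5 of 17 fell, beside 4.88% of all genes, and none rose. Further lipid-associated genes went the other way, with 4 of 15 higher, beside 3.2% of all genes, and none lower (median 0.42): Plin2, a lipid droplet coat, by 0.65 (standard error 0.23, adjusted p = 0.702), the fatty acid carrier Fabp5 by 0.71 (standard error 0.27, adjusted p = 0.703) and the lysosomal protease Ctsd by 0.52 (standard error 0.22, adjusted p = 0.731), and Ctsl. Adipocytes express these genes too. Without that library 3 of 14 were higher, beside 4.47% of all genes. Of the 7 partners of Csf1r and DAP12, Il34, a ligand of Csf1r, rose by 0.57 (standard error 0.23, adjusted p = 0.722), a call lost without that library, and of the alternative and proinflammatory activation genes none of 6 and none of 4 was called, and 2 of 6 of the former fell without it.

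Markers of other cells moved beside the macrophage genes. Of all genes 6.25% rose and 3.75% fell in Has2_TG, and 3.2% rose and 3.39% fell in PH20_TG. Without the library labelled PH20_TG1 4.88% fell. Of 9 monocyte markers tested 5 rose in Has2_TG, and their sum was 167 to 317 FPKM against 44.1 to 104 in Has2_WT. They were Ace (2.05, standard error 0.35, adjusted p = 0.0662), Plac8 (1.48, standard error 0.27, adjusted p = 0.0716), Fn1 (2.19, standard error 0.42, adjusted p = 0.0776), Vcan and Ccr2, of which Fn1, Vcan and Ace are also made by stromal cells. The log2 fold changes of 3 further monocyte markers were below 0 and did not pass the threshold, -1.78 for Ly6c2, -1.64 for Cx3cr1 and -1.52 for Spn. In PH20_TG 1 of 9 monocyte markers fell, Ly6c2 by a log2 fold change of -1.77 (standard error 0.58, adjusted p = 0.688), and 3 of 9 fell without the library labelled PH20_TG1. Of 2 neutrophil markers tested, Mmp9 rose in Has2_TG by 0.98 (standard error 0.27, adjusted p = 0.195), and of 12 dendritic cell markers none was called in either study, though 3 fell in PH20_TG without the library labelled PH20_TG1. Of 12 B cell markers 4 fell in Has2_TG and 5 in PH20_TG, and of 12 T cell markers 3 and 5, while 1 of 4 and 1 of 5 lymph node stroma markers tested fell. The B cell markers summed to 21.5 to 34.2 FPKM in Has2_TG and 17.4 to 24.2 in PH20_TG, against 16.9 to 408 and 24.3 to 417 in the controls. Of 11 skeletal muscle markers 10 fell in PH20_TG, with sums of 10.0 to 298 FPKM against 252 to 1034.5 in PH20_WT, and none of 10 was called in Has2_TG. Adipocyte markers were called 0 of 10 times in each study, and so were the 2 and 3 mast cell markers tested. Adding the mean log2 level of B cell markers to the fit gave 14 increases of macrophage genes in Has2_TG, beside 708 of 12606 genes in all. It gave no decrease in PH20_TG, beside 317 of 12532. With the mean log2 level of skeletal muscle markers added, 12 rose in Has2_TG, beside 789 of 12606 genes in all. None fell in PH20_TG, beside 106 of 12532. The number with a higher change with Has2 than with PH20 was 1 in place of 7, beside 462 of 12593. The part of these cells in the macrophage values was not tested beyond these fits.

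**Figure D5:**
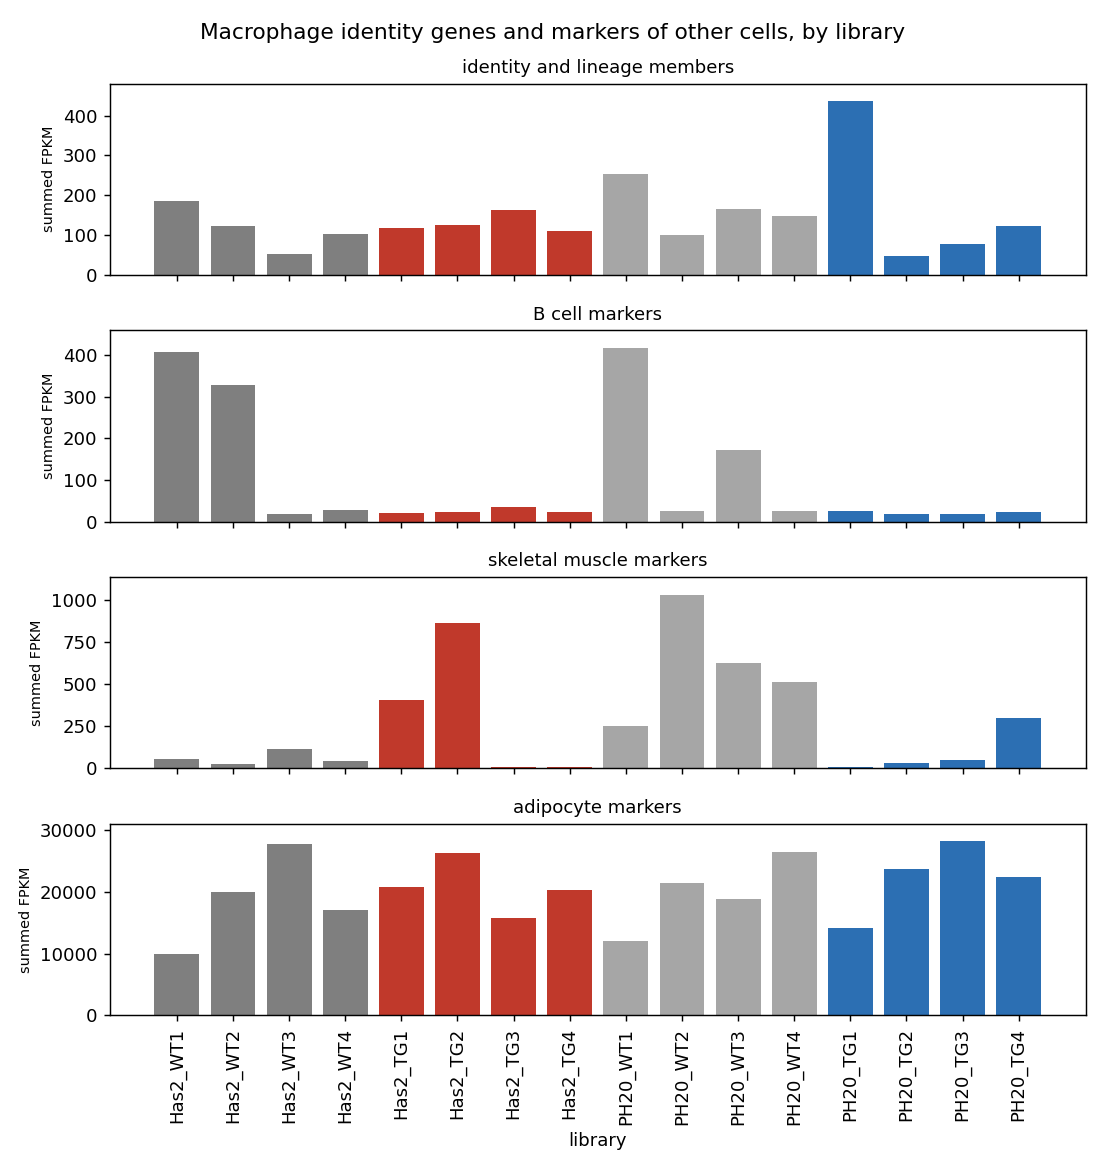
Bars are summed FPKM per library, from 0, of the 7 identity and lineage genes and of markers of B cells, skeletal muscle and adipocytes, with Has2_TG in red, PH20_TG in blue and controls in grey. Identity genes sum to 437 FPKM in the library labelled PH20_TG1 and 48.2 in PH20_TG2; B cell bars are tall in 4 control libraries only, at 171 to 417 FPKM.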

How the data were processed

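The deposited table gives FPKM per gene and library, with gene lengths. According to the methods and the submitters' processing notes, RNA was made into libraries with a TruSeq RNA kit, checked with FastQC (version 0.11.9) and MultiQC (version 1.12), aligned to GRCm38 and counted with STAR (version 2.7.9a), and tested with DESeq2, which was not used here. FPKM times gene length and library total gave whole reads (within 0.01) in 100% of the values, and that total differs from the reads on genes by 0.886 to 1.14 times, so the deposited FPKM carry the authors' scaling.

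Each study (8 libraries) was fitted with limma (version 3.58.1, R version 4.3.3), two-sided, with a variance trend, on log2(FPKM + 0.1) over genes whose reads averaged 50 or more, and the difference between studies in a fit of all 16. Groups came from the labels, and 0 columns belonged to other samples. No 2 of the 16 libraries were duplicates: over 12593 genes the chi-square of any pair was at least 28.7 per degree of freedom. The 32 genes and all lists were chosen with earlier results of these data known. Values in every library are given for genes called in any comparison, for resident and lipid-associated genes and for Adgre1, Cd68, Csf1r, Lyz2, Mrc1, Tyrobp and Fcer1g; of each further list, up to 3 called genes with the smallest p per study, except a gene that is not reported here. Coordinates are those of the file, and 29 of the 32 genes have the same ones in GENCODE mouse release 21, used for overlaps. The fits were tested on simulated data. Alternatives were the pseudocount, the minimum of reads, the scaling, voom weights, the variance trend, all libraries in one fit, the replicate block, a B cell or muscle covariate and leaving out libraries. The limit for a value of 0 is 3 reads and covers counting error only. Proteins were not analysed here.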

Additional observations from a re-analysis of the deposited data

Results flagged for a closer look

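Of 128 combinations of gene and group, 11 held a library that stood far from the other 3. The cut is set to pass about 1 in 20 sets of independent, normally distributed values. FPKM of genes in the same library are not independent, so that rate is no reference for the 11. No rate over all genes was taken. Of the 11, 7 were the library labelled PH20_TG1. There the FPKM were 46.1 for Adgre1, 139 for Cd68, 77.2 for Mpeg1, 313 for Ctss, 20.0 for Trem2, 96.7 for Gpnmb and 7.34 for Ms4a7. The remaining ones were Folr2 in Has2_WT4 (8.13) and PH20_WT4 (12.3), and Vsig4 in Has2_WT1 (3.56) and PH20_WT3 (1.30).

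The test of the difference between the change with Has2 and that with PH20 passed the unadjusted threshold for 7 genes. On the log2 scale the difference was 1.20 for Fcgr2b, 1.61 for Cd209f, 1.41 for Cd209g, 1.58 for Mrc1, 1.82 for Cd163, 1.49 for Clec10a and 1.19 for Cd14. None passed adjustment over all genes.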

How the results depend on the processing

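None of the called changes turned sign under the alternatives run, whereas 6 of 20 uncalled changes with Has2, 16 of 29 with PH20 and 8 of 24 differences did so under at least 1 of them. Laptm5, Mpeg1, Ms4a6c and Timd4, below 0 with Has2, were above 0 with the B cell covariate, and Gpnmb with PH20 was -0.04 without PH20_TG1 in place of 1.23. The single-gene calls kept their side of the threshold in 191 of 239 values for Has2, 12 of 20 for PH20 and 141 of 189 for the difference. The median log2 fold change stayed between 0.41 and 0.72 with Has2, between -0.93 and -0.06 with PH20 and between 0.55 and 1.45 for the difference. The cause of the following shifts was not tested. With all 16 libraries in one fit the number that rose with Has2 was 4 in place of 12, beside 802 of 12593 genes. With PH20, 1 rose in place of 0 and 0 fell in place of 1, beside 338 and 292 of 12593. Quantile normalization gave 1 increase with PH20, beside 460 of 12532 genes. With B cell or muscle markers as a covariate, 0 fell with PH20, beside 317 and 106 of 12532 genes. With muscle markers 1 differed between studies in place of 7, beside 462 of 12593. Without the control libraries rich in B cell genes, an alternative chosen after the data were seen, 16 rose with Has2, beside 734 of 12323 genes. There 0 fell with PH20, beside 245 of 12175, and 1 differed, beside 288 of 12269. Leaving out 1 library at a time gave 7 to 16 increases and 0 to 1 decreases with Has2, beside 619 to 880 and 329 to 592 genes. The decrease, without Has2_WT3, was Timd4. With PH20 it gave 0 to 1 increases and 0 to 18 decreases, beside 283 to 559 and 279 to 655 genes. It gave 3 to 19 differences, beside 322 to 759 genes.

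Libraries of the same number did not deviate together in each pair: the correlation was -0.01, 0.13, -0.18 and 0.01 for numbers 1 to 4 of Has2 and 0.35, 0.42, -0.03 and -0.04 of PH20, and 1 of 4 numbers in Has2 and 2 of 4 in PH20 correlated best with its own. The replicate block gave 10 increases with Has2, 6 decreases with PH20 and 9 differences. Over all genes it gave 750 of 12606, 669 of 12532 and 637 of 12593. Depth limited Vsig4 and Cd209c, which had too few reads to be tested with PH20.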
